A study of Mus musculus with 2 samples.

Results

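Integrins are the paired alpha and beta receptors by which leukocytes hold on to other cells and to matrix. Messenger RNA of 10 mouse integrin genes of leukocytes (Itgal, Itgam, Itgax, Itgb2, Itga4, Itga5, Itgb1, Itgav, Itgb3 and Itgb7) was examined in RAW 264.7 cells, a mouse macrophage-like tumour line. The genes were taken by name, and every probe set whose single annotated gene symbol was one of them was used, which gave 20 of the 20380 probe sets with 1 symbol, or 10 of 12393 genes. The cells had received IFN-gamma at 1000 U/ml for 4 h, or IFN-gamma at the same dose together with adenosine at 300 uM for 4 h. Fresh medium preceded treatment in both, all cells received IFN-gamma, and no untreated array was analysed here. RNA from 2 experiments was pooled per treatment, so each treatment is 1 Affymetrix array, no test was possible and no difference below has a replicate check.

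Each integrin is a pair of 1 alpha and 1 beta chain, and the pairing sets the ligand. The beta 2 chain (Itgb2) is restricted to leukocytes and pairs with Itgal to form LFA-1, with Itgam to form Mac-1, also the complement receptor CR3, and with Itgax to form CR4. The beta 1 chain (Itgb1) pairs with Itga4 to form VLA-4, which binds VCAM-1 and fibronectin, and with Itga5 to form the classical fibronectin receptor. The alpha v chain (Itgav) pairs with beta 3 (Itgb3), among others, and the beta 7 chain (Itgb7) pairs with alpha 4 in gut-homing lymphocytes. Receptors at the surface are switched on from inside the cell by talin and kindlin, so mRNA level, the only quantity measured here, is 1 of several layers of control.

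RefSeq promoters (GRCm38.p6) were found for 7 of the 10 genes. Those of 3 genes are shown for where their log2 ratios lay: Itga5 and Itgb1, whose products form 1 receptor, had the highest ratios by the probe set used for each gene, and Itgam lay at the array median. Each line gives the 250 bases before the annotated start, 5′ to 3′ on the strand of the gene. Capitals mark the letters GAGGAA on either strand, the core of sites of PU.1, an ETS factor of macrophages, and the letters TGACG on either strand, a part of the cAMP response element. The windows are chr7:128062390-128062639 (plus strand) for Itgam, chr15:103366792-103367041 (minus strand) for Itga5 and chr8:128685404-128685653 (plus strand) for Itgb1.
Itgam: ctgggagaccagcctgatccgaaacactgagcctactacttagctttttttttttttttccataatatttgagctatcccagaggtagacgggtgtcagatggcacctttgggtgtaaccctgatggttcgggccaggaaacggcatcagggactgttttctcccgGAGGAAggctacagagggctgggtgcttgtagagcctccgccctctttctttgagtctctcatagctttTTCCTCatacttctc
Itga5: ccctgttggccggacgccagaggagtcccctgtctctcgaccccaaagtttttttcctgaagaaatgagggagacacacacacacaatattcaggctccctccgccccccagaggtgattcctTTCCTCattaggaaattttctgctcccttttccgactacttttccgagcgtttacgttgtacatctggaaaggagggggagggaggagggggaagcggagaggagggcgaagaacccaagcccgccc
Itgb1: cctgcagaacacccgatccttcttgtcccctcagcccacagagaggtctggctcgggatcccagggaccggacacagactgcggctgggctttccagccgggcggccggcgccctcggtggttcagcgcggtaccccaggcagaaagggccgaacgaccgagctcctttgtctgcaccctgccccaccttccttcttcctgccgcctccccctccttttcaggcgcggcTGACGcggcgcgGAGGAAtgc
GAGGAA began 84 and 15 bases before the start in Itgam, 127 before it in Itga5 and 9 before it in Itgb1. It was also present in Itgav and in none of the windows of Itga4, Itgax and Itgb7, against 23.3% of 32851 promoter windows in the table. TGACG was found once, 21 bases before the start of Itgb1 (17.8% of all windows), and did not overlap GAGGAA there. The interferon-activated motif TTCNNNGAA was in none of the 7 windows (7.02% of all windows). These are matches of letters, not measured binding.

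Signals of the adenosine array were lower over nearly its whole range, with a median of 15.2 against 45.9 over 22626 gene probe sets. Its signals were therefore multiplied by 2.82, which removes the median log2 shift of -1.50, and all its signals below are on that scale unless called deposited. Signals under a floor of 44.0, the median scaled signal, were raised to it, and a gene under it on both arrays was not counted as measured. Ratios are given as log2 of the signal with adenosine over the signal without it. Their median over 6818 measured genes was -0.08 on this scale, and the middle 50% of them lay between -0.52 and 0.30. The only error available for a ratio is the scatter between 2 probe sets of a gene, with a log2 SD of 0.52 over 2375 genes, which leaves out cultures and arrays. Of 11 macrophage markers all were measured, among them Adgre1 (903 and 1004) and Csf1r (5552 and 5005), with summed signals of 35812 and 41803. Their ratios had a median of -0.15, with 6 below 0 and 5 above. That of Lyz2 (6444 and 13361) was the highest, though as deposited its log2 ratio was -0.44. Without Lyz2 the summed signal would be lower with adenosine. Past 2-fold were 3 of the 11, Fcgr1 and C1qb on the lower side and Lyz2 on the higher. Of the 6818 genes, 10.1% lay past 2-fold on the lower side and 4.52% on the higher. The 32 markers of lymphocytes, dendritic cells, granulocytes and mast cells, or fibroblasts, endothelium and epithelium were all under the floor on both arrays and have no ratio.

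No measured integrin gene was at least 2-fold lower or at least 2-fold higher with adenosine. This count covers 7 of the 10 genes, since 3 were under the floor. Over all genes above it, the shares past 2-fold were 10.1% lower and 4.52% higher. Their median log2 ratio was 0.07, within a range from -0.98 to 0.77, and 4 of 7 lay above 0 (44.0% of all measured genes did). In a bulk RNA pool, fewer cells with a transcript and less of it per cell cannot be told apart.

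**Figure D1:**
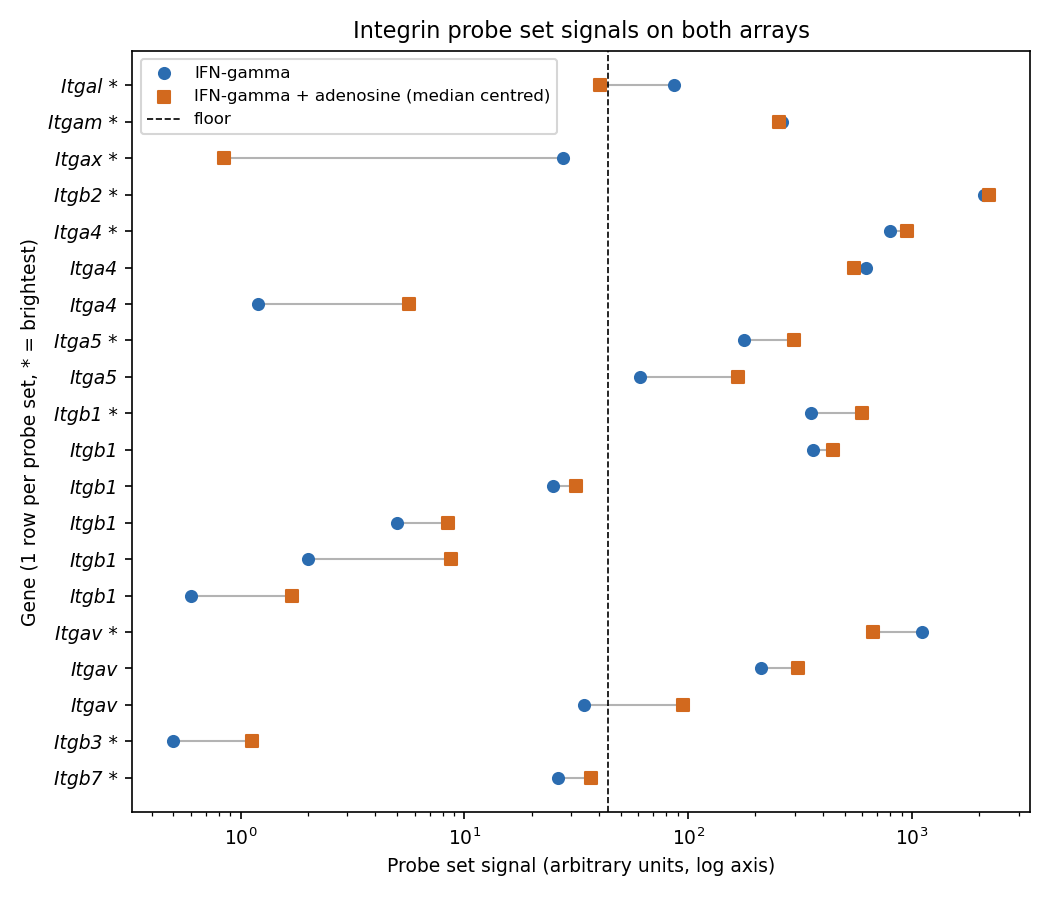
Signal of each of the 20 integrin probe sets (1 row each, log axis, arbitrary units) on the IFN-gamma array (circles) and on the adenosine plus IFN-gamma array after median centring (squares), with the floor of 44.0 as a dashed line and the probe set used for each gene starred. Probe sets of Itgb2, Itgam and Itga4 above the floor shifted little, both of Itga5 moved right and Itgal moved left across the floor; signals of different probe sets are not comparable as levels.

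Among the beta 2 integrins, the common chain and its Mac-1 partner lay close to the array median. Itgb2, the beta chain shared by LFA-1, Mac-1 and CR4, had a signal of 2109 with IFN-gamma and 2210 with adenosine, a log2 ratio of 0.07. The gap is well inside the scatter of the 594 genes with the highest signals among those 2375, whose SD was 0.40. With loess scaling the log2 ratio of Itgb2 was -0.002, so its sign is not settled. Itgam, the alpha chain of Mac-1 that takes up complement-coated particles, was at 262 and 254 (log2 ratio -0.04). Its sign turned with quantile scaling (0.06) and loess scaling (0.04), so the data give it no direction. Both genes rest on a single probe set.

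Itgal, the alpha chain of LFA-1 that binds ICAM-1, was the lowest of the measured members. Its single probe set had a signal of 86.5 with IFN-gamma and 40.6 with adenosine, the latter under the floor. With that signal raised to the floor it was at least 1.97-fold lower, a log2 ratio of -0.98, and 10.6% of measured genes had a lower one. Genes of like signal had a median of -0.22, which leaves -0.75 for Itgal. Without the floor the log2 ratio was -1.09, past 2-fold, as it was with the floor at the 33rd percentile. Itgal is thus the 1 measured member whose count as 2-fold lower turned on where the floor was set, and its adenosine signal is close to that floor.

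Itgax, the alpha chain of CR4 and a marker of dendritic cells, was under the floor on both arrays. Its signals were 27.7 with IFN-gamma and 0.846 with adenosine, and 0.3 for the latter as deposited. With the floor at the 33rd percentile (8.74) it became measured and was at least 3.17-fold lower. In RefSeq's gene order Itgam, Itgax and Itgad follow each other directly on chromosome 7, and Itgal lies elsewhere on it. Itgam, next to Itgax, differed by a log2 ratio of only -0.04.

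Among the beta 1 integrins, Itgb1 and Itga5 had ratios above 0, and that of Itga4 had no settled sign. Itgb1, the chain shared by VLA-4 and the fibronectin receptor, had signals of 353 and 601 by the probe set used for it, 1.70-fold higher with adenosine (log2 ratio 0.77). Its second measured probe set read 361 and 444, a log2 ratio of 0.30. With IFN-gamma alone this second one was the brighter, so the choice between them rested on the adenosine array. Leaving out shared probe sets put Itgb1 at 0.30, within the scatter SD of 0.52. The 2 probe sets differed by 0.47, less than the SD of 0.73 for a difference between probe sets of a gene. The other 4 probe sets of Itgb1 were under the floor on both arrays, none above 31.6.

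Itga5, the alpha chain of the fibronectin receptor, gave ratios above 0.52 by both of its probe sets. The probe set used for it read 178 with IFN-gamma and 296 with adenosine, 1.67-fold higher (log2 ratio 0.74). The other read 60.7 and 168, 2.76-fold higher (log2 ratio 1.47), and 98.6% of measured genes had a lower ratio than that. Both were above the floor on each array, and they differed by 0.73, equal to the SD of such differences. As deposited, both probe sets of Itga5 and both measured ones of Itgb1 were lower with adenosine, Itga5 with log2 ratios of -0.76 and -0.03 and Itgb1 with -0.73 and -1.20. With spiked-in scaling the ratios of the probe sets used were -0.23 for Itga5 and -0.20 for Itgb1, so their position above 0 is relative to the array median.

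Itga4, the alpha chain of VLA-4, read 798 with IFN-gamma and 950 with adenosine, a log2 ratio of 0.25. A second probe set read 625 and 550 (log2 ratio -0.19), and the third was near 0 on both arrays, at 1.2 and 5.64. The 2 measured probe sets thus fell on either side of 0, within the scatter, and the sign of Itga4 is not settled.

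Itgav, the alpha chain that binds vitronectin and osteopontin, had probe sets that disagreed beyond the scatter. The brightest read 1105 with IFN-gamma and 667 with adenosine, 1.66-fold lower (log2 ratio -0.73). The second read 212 and 308, 1.45-fold higher (log2 ratio 0.54). The third read 34.4, under the floor, and 94.4, which puts it at least 2.15-fold higher. These ratios span 1.83 on the log2 scale. The SD of 0.73 is for the 2 brightest probe sets of a gene above the floor on both arrays, here at -0.73 and 0.54. It does not cover the third, which was under the floor with IFN-gamma. The mean of all probe sets, taken before the floor was applied, put Itgav at 0.42 instead of -0.73. With each ratio floored, the mean of the 3 was 0.30. Whether the 3 probe sets read different transcripts was not tested, and all 3 of their ratios were negative as deposited.

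Itgb3, which with alpha v forms the vitronectin receptor of osteoclasts, was under the floor at 0.5 and 1.13. Itgb7 was under it at 26.2 and 36.9. Neither gene has a second probe set here, and no fold is given for either. Itga2b, the partner of beta 3 in platelets, was also under the floor, none of its values above 32.1, and of 6 megakaryocyte and platelet markers only Pf4 was measured (577 and 748). Of 8 osteoclast markers 3 were measured, Nfatc1 and Tnfrsf11a at least 2-fold higher and Ocstamp at least 2-fold lower. Over all measured genes 4.52% were that much higher and 10.1% lower. Second probe sets had log2 ratios of 2.18 for Nfatc1 and 0.92, under 2-fold, for Tnfrsf11a. As deposited, the probe sets used for them gave -0.19 for Nfatc1 and 1.14 for Tnfrsf11a.

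**Figure D2:**
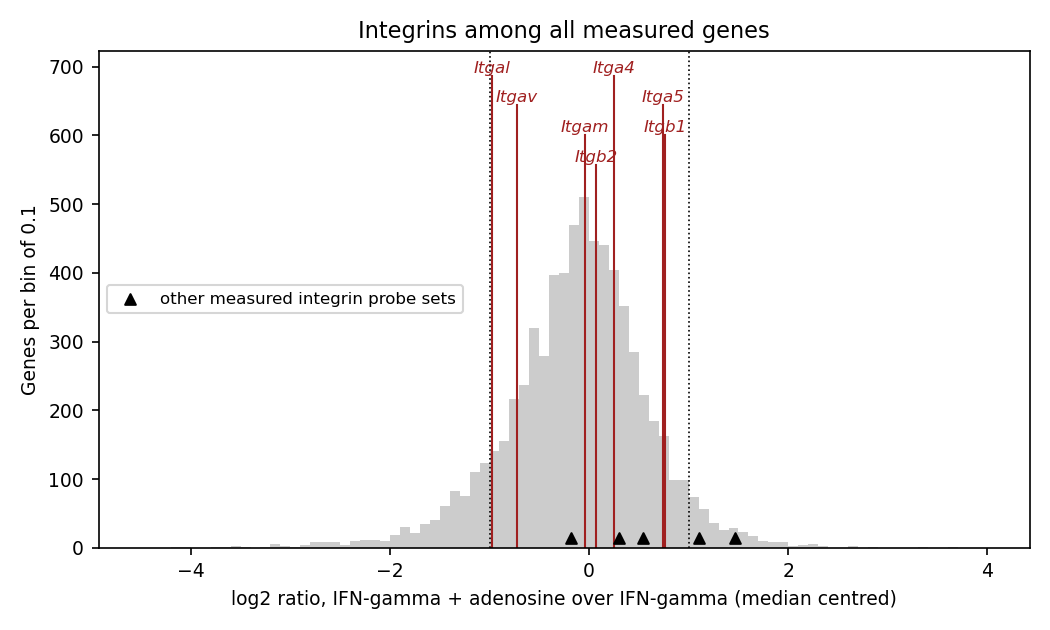
Histogram of the log2 ratio (adenosine plus IFN-gamma over IFN-gamma, median centred) of 6818 measured genes in bins of 0.1, with the 7 measured integrin genes as lines, their 5 other measured probe sets as triangles and 2-fold as dotted lines. All 7 genes lie inside the dotted lines, Itgal at -0.98 next to the lower one, and 2 triangles, a probe set of Itgav and one of Itga5, lie beyond the upper one; the positive integrin ratios are negative in the values as deposited.

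Over probe sets rather than genes, 12 of the 20 were measured, 8 with a ratio above 0 and 4 below. These 12 belong to 7 genes, 4 of which have several measured probe sets, so they are not separate members. Over all measured genes 44.0% had a ratio above 0, a share by gene and not by probe set. The 2 probe sets that were at least 2-fold higher, the second of Itga5 and the third of Itgav, compare with 5.88% of 11042 measured probe sets. None was at least 2-fold lower, against 9.51%. At the lower threshold of 1.5-fold, by the probe set used for each gene, Itgal and Itgav were lower (21.8% of genes). Itga5 and Itgb1 were higher (12.9% of genes). In units of the scatter, 3 of 7 genes lay within 1 SD of 0, as did 59.8% of all measured genes. The 4 outside were Itgal, Itgav, Itga5 and Itgb1, the last of them only by the probe set used for it. Set against genes of like signal in place of 0, the median of the 7 was 0.09.

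As deposited, all 7 were lower with adenosine, with log2 ratios between -2.59 for Itgal and -0.73 for Itgb1 before any floor. After the floor of 24.5 that applies to those values, 5 of 9 measured integrins had at least 2-fold lower signals (Itgal, Itgam, Itgb2, Itga4 and Itgav), against 78.8% of genes. None was at least 2-fold higher, against 0.141% of genes.

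**Figure D3:**
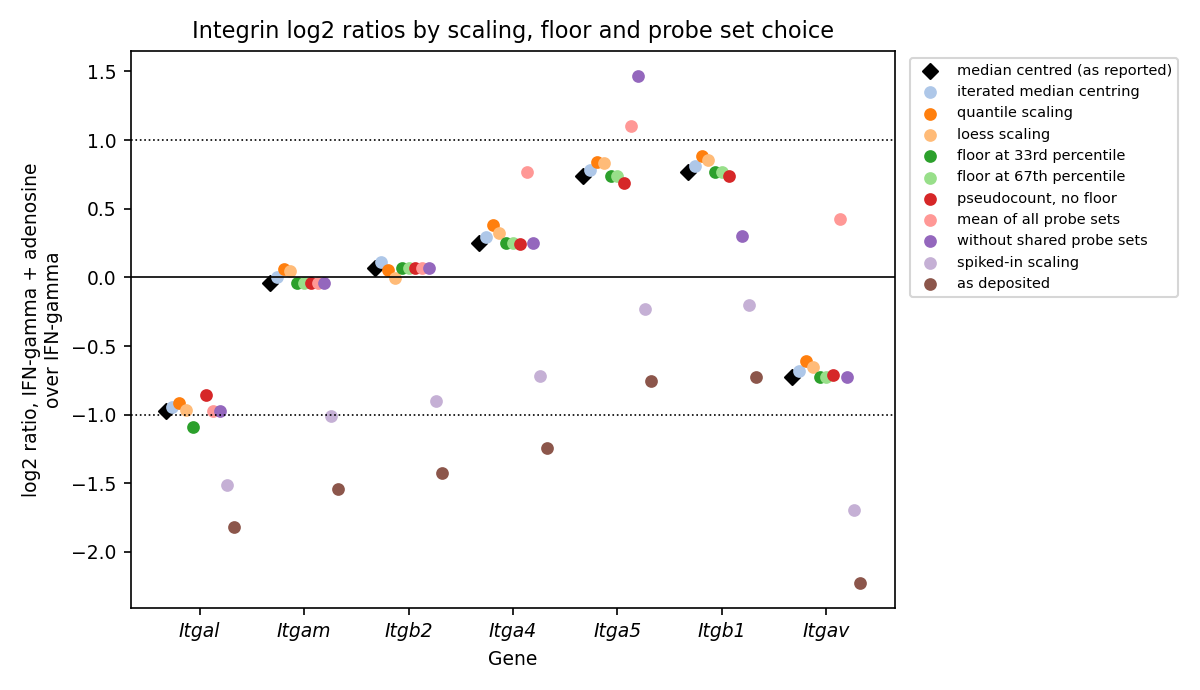
Log2 ratio (adenosine plus IFN-gamma over IFN-gamma) of the 7 measured integrin genes under the reported setting (diamonds) and 10 others (circles), with 2-fold as dotted lines. Itgal stays below 0 in every setting that measured it, Itga5 and Itgb1 stay above 0 except as deposited and with spiked-in scaling, and Itgav changes side with the mean of all probe sets.

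Of the other integrin subunits, 11 were on the array and 2 were measured. Itgb5, a further partner of alpha v, read 240 and 369 (log2 ratio 0.62), with other probe sets at 0.86, 0.20 and -0.05. Itga6, a laminin receptor chain, read 64.2 and 66.5 (log2 ratio 0.05). Itgae, the partner of beta 7 in mucosal lymphocytes, was under the floor at 0.9 and 6.20, and Itgad was not analysed here. Neither Itgb5 nor Itga6 passed 2-fold in either direction, beside 10.1% lower and 4.52% higher over all measured genes.

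Among genes of integrin ligands, 4 of 19 were measured, 1 at least 2-fold lower and none higher, with a median of -0.50. The shares over all measured genes were 10.1% lower and 4.52% higher. Icam1, the ligand of LFA-1 and Mac-1, read 2501 and 1385, 1.81-fold lower (log2 ratio -0.85). Icam2, another ligand of LFA-1, named after its values were seen, read 49.6 and 44.8 (log2 ratio -0.15), close to the floor. Jam2, a junctional adhesion molecule that VLA-4 can bind, was 2.26-fold lower (146 and 64.6), and Mfge8, a bridge from dying cells to alpha v integrins, had a log2 ratio of 0.36. Vcam1 (10.6 and 8.74) and Fn1, the fibronectin gene (8.0 and 11.3), were under the floor, and Spp1 was not analysed here.

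Of 20 genes on the array that switch integrins on from inside the cell, or hold them off, 16 were measured. Against 10.1% lower and 4.52% higher over all genes, 1 of these 16 was at least 2-fold lower and none higher. Their median of -0.08 equals that of all genes, and single ratios ranged from -1.06 (Fyb) to 0.82 (Cyth1). Tln1, the talin gene, read 807 and 781 (log2 ratio -0.05), but a second probe set gave -1.08. Fermt3, kindlin-3 of blood cells, had a log2 ratio of -0.52, with other probe sets at -0.04 and -0.06. The small GTPase genes Rap1a and Rap1b, upstream of talin, were at -0.06 and -0.10, and Apbb1ip, the adaptor RIAM between them and talin, at -0.11. Other probe sets gave -0.22 for Rap1a, and 0.22 and 0.22 for Rap1b. The adaptor gene Fyb (ADAP) was 2.08-fold lower (1041 and 501) and Skap2, its binding partner, had a log2 ratio of -0.72. Cyth1, cytohesin-1, which binds the beta 2 tail, was at 0.82, with a second probe set past 2-fold at 1.60.

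Genes that act downstream of bound integrins and at adhesion sites formed the longest list. Past 2-fold were 7 of the 32 measured, 6 of them lower and 1 higher, beside 10.1% lower and 4.52% higher over all genes, and the median was -0.09. Zyx, the zyxin gene of mature adhesions, was 5.50-fold lower (1050 and 191) by its single measured probe set. Crk, an adaptor that docks to paxillin and p130Cas, was 4.91-fold lower (888 and 181), with other probe sets at -1.71 and 0.16. Fgr, a Src-family kinase of myeloid cells that acts after beta 2 binding, was 3.26-fold lower (305 and 93.6).

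The other 3 of the 6, named after their values were seen, were Arhgef7 (3.23-fold), the exchange factor gene Vav3 (2.88-fold) and the paxillin gene Pxn (2.10-fold). Other probe sets had log2 ratios of -2.01 and -0.54 for Vav3 and of -0.89 and 0.51 for Pxn. Parvb, which encodes a partner of integrin-linked kinase, read 20.1 with IFN-gamma, under the floor, and 169 with adenosine, and was at least 3.84-fold higher. Syk, the kinase that relays beta 2 signals, read 112 and 173 (log2 ratio 0.62), with other probe sets at -0.23 and 1.42, and Ptk2b, the adhesion kinase PYK2, had a log2 ratio of 0.22. Ptk2 was not analysed here.

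Tetraspanins and other surface partners of integrins had 1 of 13 measured genes at least 2-fold lower, none higher, and a median of 0.21. Plaur, the urokinase receptor, which associates with Mac-1, was the lower one at 2.33-fold (1079 and 463). Bsg (basigin) and Lgals3 (galectin-3) had log2 ratios of 0.61 and 0.52. Cd47, a partner of alpha v beta 3, was at 0.21, with other probe sets at -1.06 and -0.87. In the list of selectins and their ligands 4 of 10 were measured and none passed 2-fold, with a median of -0.42. Its 3 largest ratios were those of Selplg, the selectin ligand PSGL-1 (-0.62), Cd24a (-0.46, with other probe sets at -0.42 and -1.26) and Cd44, the hyaluronan receptor (-0.39, with a second probe set at 0.26). Every positive ratio named in these lists other than those of Parvb and the second probe set of Cyth1 was negative in the values as deposited.

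**Figure D4:**
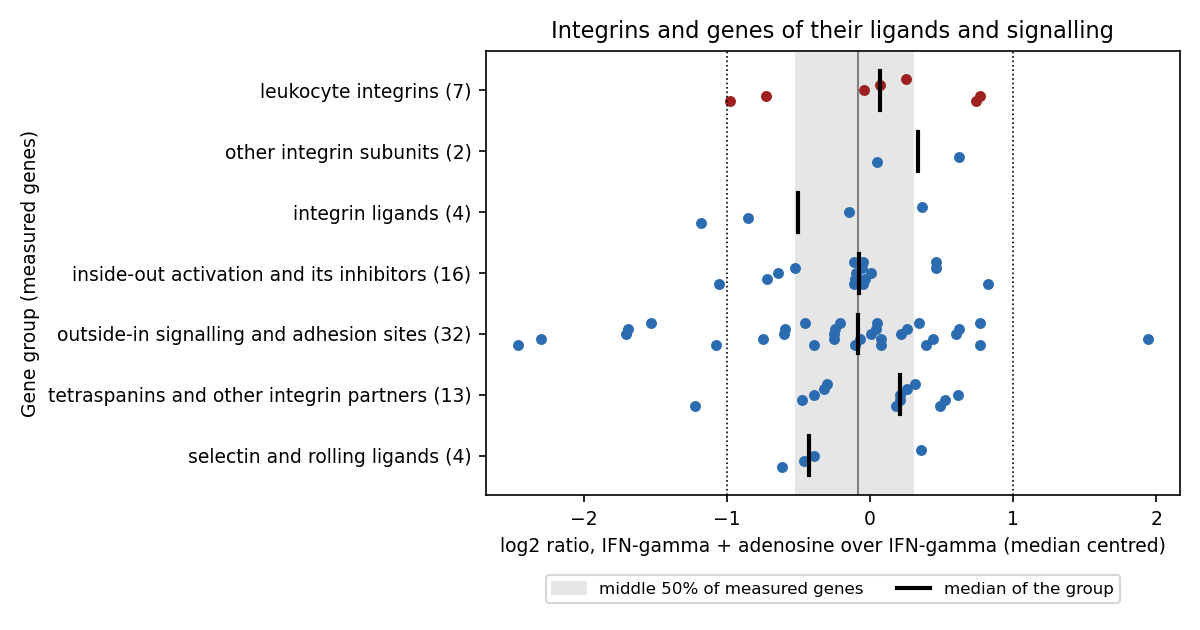
Log2 ratio (adenosine plus IFN-gamma over IFN-gamma, median centred) of each measured gene in the integrin group and in 6 lists of related genes, with the group median as a bar, the middle 50% of all measured genes shaded, their median of -0.08 as a grey line and 2-fold as dotted lines. The 7 integrins stay within the dotted lines, and the longer list of 32 signalling and adhesion site genes reaches from -2.46 (Zyx) to 1.94 (Parvb); medians above 0 are negative in the values as deposited.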

How the data were processed

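Total RNA, pooled from 2 experiments per treatment, was labelled with biotin and hybridized to 1 Affymetrix array per treatment, per the labels' protocols. The values deposited by the authors are linear probe set intensity values; the Affymetrix software GCOS comes from the submitters' processing notes, and neither the signal algorithm nor the scaling target nor a genome build is stated there or in the labels. Depth does not apply to arrays, and their number limits the precision.

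Of 22690 probe sets, 64 manufacturer's controls were left out; 20380 of the rest had 1 gene symbol, 691 several and 1555 none in the platform annotation, and only the first were used. The log2 ratio was centred on its median over the 10041 probe sets above the 50th percentile of deposited signals on both arrays. The floor was the 50th percentile of all scaled signals. A gene's value is that of its probe set brightest on average. A gene's like-signal reference is the median over the 201 measured genes nearest in mean log2 signal.

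The integrin genes, the 6 lists of related genes and the 7 marker lists were chosen with earlier results of these data known. Of the related genes, the 3 largest absolute ratios in each list and 18 preset genes were to be named, 1 of which is not reported here. Calculations used Python 3.11.15 with pandas 2.3.3, numpy 2.4.6 and statsmodels 0.14.6 and were tested on simulated data. Alternatives were the values as deposited, quantile, loess and spiked-in scaling, a floor at the 33rd or the 67th percentile, no floor but a pseudocount of 16, the mean of all probe sets, leaving out probe sets that may hit several transcripts (suffix _s_at, _x_at or _a_at), thresholds of 1.5-fold and 3-fold and, added after the data had been seen, a centring repeated until the shift settled.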

Additional observations from a re-analysis of the deposited data

How the results depend on the processing

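No paired analysis was possible because there is 1 pooled array for each group, which also leaves no replicate to omit. Against 0 integrin genes at least 2-fold lower, there were 5 of 9 as deposited and 3 of 7 with spiked-in scaling (Itgal, Itgam and Itgav). The floor at the 33rd percentile gave 2 of 9 (Itgal and Itgax), the pseudocount 1 of 10 (Itgax) and 1.5-fold 2 of 7. Over all measured genes the lower shares were 78.8%, 50.7%, 10.3%, 5.79% and 21.8% in the same order. Against 0 at least 2-fold higher, the mean of all probe sets and leaving out shared probe sets each gave 1 (Itga5), and 1.5-fold gave 2. The higher shares over all measured genes were 4.3%, 4.8% and 12.9% in these settings. The median log2 ratio of the measured integrins, 0.07, was -1.24 as deposited and -0.90 with spiked-in scaling, and lay between 0.04 and 0.25 under the other alternatives. The deposited and spiked-in values differ from the others by construction, since neither removes the whole median shift of -1.50. The 18 spiked-in controls had a median log2 ratio of -0.53, so scaling by them leaves -0.97 of the shift. Whether that remainder is a change in the cells was not tested. The floors differ in which genes they measure. Quantile scaling moved the split of all genes from 308 higher and 691 lower to 398 and 568, with the integrin counts unchanged at 0. The median of the ligand list turned from -0.50 to 0.26 with the lower of the other floors and to 0.11 with the pseudocount, which count more genes as measured. The scatter SD lay between 0.51 and 0.52 under every scaling tried. Signals near the floor limit what can be said of Itgal, Itgax and Itgb7.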
